A study of Mus musculus with 30 samples.

Results

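The endoplasmic reticulum (ER) module described here holds 50 genes that fold, check and move secreted and membrane proteins, chosen as a named list and matched from Ensembl gene IDs to mouse symbols. All 50 were found among 43629 gene IDs in the counts. The 30 libraries, 5 in each of 6 groups, were made from messenger RNA of mouse hearts (strain C57BL/6J, wild type). Mice with myocardial infarction (MI) had anaesthesia with isoflurane, an opened chest, removal of the pericardium and ligation of a coronary artery. Sham mice had the same operation without the ligation, so opened chest and removed pericardium are shared by both groups. Hearts were taken at day 2, 4 or 7, and the labels give neither the age of the mice nor the part of the heart used. Each comparison set the 5 MI libraries of a day against the 5 sham libraries of that day.

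Proteins that enter the secretory pathway pass through the SEC61 channel into the ER, lose their signal peptide, fold with the help of chaperones and disulfide enzymes, and leave in COPII vesicles. Proteins that fail to fold are sent back to the cytosol and degraded, a route called ER-associated degradation. When unfolded proteins gather, the sensors IRE1, PERK and ATF6 start the unfolded protein response, in which the transcription factors XBP1, ATF4 and ATF6 raise chaperones, degradation factors and, in prolonged stress, genes linked to cell death. In heart tissue both cardiomyocytes, whose ER is largely specialised for calcium storage, and secretory cells such as fibroblasts and plasma cells use this machinery. The members were read in 7 roles, namely 15 chaperones and their co-factors, 2 collagen folding factors, 5 stress sensors and transcription factors, 5 stress targets, 7 genes of ER-associated degradation, 12 genes of translocation and signal cleavage, and 4 genes of export and retrieval.

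The ER stress element, through which ATF6 is known to act on chaperone genes, is printed first, because several members share it. As it is known from such genes, finding it among the chaperones is a description and no independent result. It was searched as CCAAT, then any 9 bases, then CCACG, on both strands, in RefSeq promoter windows of GRCm38.p6 reaching from 250 bases before to 50 bases after the start site of each gene. Windows were found for 40 of the 50 members. The element was present in 9 of those 40 (22.5%), against 0.1369% of the 27025 genes in the promoter table. It lay in 7 of 13 chaperones with a window, and in Syvn1 and Derl3 of the degradation group. The stretches below run 5′ to 3′ on the strand of the gene, with the element in capitals.

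Hspa5 (chr2:34772010-34772058, plus strand): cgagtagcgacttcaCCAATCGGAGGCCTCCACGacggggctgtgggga
Hsp90b1 (chr10:86705518-86705671, minus strand): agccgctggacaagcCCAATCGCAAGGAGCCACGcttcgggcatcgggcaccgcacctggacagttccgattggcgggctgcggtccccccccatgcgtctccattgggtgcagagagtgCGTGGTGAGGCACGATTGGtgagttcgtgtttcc
Calr (chr8:84847060-84847108, minus strand): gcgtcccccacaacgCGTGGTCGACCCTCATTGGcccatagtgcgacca
Canx (chr11:50325785-50325833, minus strand): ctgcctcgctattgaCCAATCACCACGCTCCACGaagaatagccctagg
Pdia6 (chr12:17266476-17266524, plus strand): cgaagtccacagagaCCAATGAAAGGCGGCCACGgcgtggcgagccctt
Dnajc3 (chr14:118937812-118937860, plus strand): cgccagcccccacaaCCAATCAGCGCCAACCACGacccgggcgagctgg
Creld2 (chr15:88819505-88819553, plus strand): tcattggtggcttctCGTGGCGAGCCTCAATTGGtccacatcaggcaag
Syvn1 (chr19:6046517-6046565, plus strand): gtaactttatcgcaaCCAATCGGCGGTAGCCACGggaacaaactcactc
Derl3 (chr10:75893227-75893275, plus strand): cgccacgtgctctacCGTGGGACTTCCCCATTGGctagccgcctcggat

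A match of letters is a description of these windows and not a site shown to be bound. In Hsp90b1 the element occurred on each strand, and Hspa5 carried it between 65 and 47 bases before its start site. Of the 9 members with the element, 6 were called higher in MI at day 2 (edgeR adjusted p under 0.05), and Canx, Dnajc3 and Syvn1 did not pass the test there. At day 4, 5 of the 8 tested with it were higher, and at day 7 4 were higher and Canx was lower. Among the 31 matched members without it, 20 were higher and 1 lower at day 2, 21 and 2 at day 4, and 16 and 2 at day 7, so a higher level in MI was not limited to genes that carry these letters. Of all tested genes with a window and without the element, 23.5% were higher at day 2, 27.3% at day 4 and 28.4% at day 7. The 7 tested genes with the element that are not members gave 1 higher and 1 lower at day 2, 2 and 1 at day 4, and 3 and 1 at day 7, counts near those shares.

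Beside the element, the 8 bases TGACGTGG were found on either strand in the windows of Sec23a, Sec24d and Kdelr3, the 3 export and retrieval genes with a window, and in 0.7142% of all genes. Its last 5 bases are the reverse complement of CCACG, so the letters of both motifs overlap. In Sec23a the match lies after the start site, in the transcribed part, and is not printed. The stretches of the other 2, whose matches lie before the start site, are given with the motif in capitals.

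Sec24d (chr3:123267455-123267492, plus strand): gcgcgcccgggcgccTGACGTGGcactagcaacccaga
Kdelr3 (chr15:79516363-79516400, plus strand): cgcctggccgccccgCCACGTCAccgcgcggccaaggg

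The motif TGATGNAA, a form of the composite element known from ATF4 target genes, was found in the windows of Trib3, Chac1 and Herpud1, which makes 7.5% of matched members against 4.511% of all genes.

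Across the 50 members, most were higher in MI at each day. Each level is a count relative to the total of its library, in CPM, after correction of that total by a TMM factor (trimmed mean of M values), and a member was called where edgeR's quasi-likelihood test, with the p-value adjusted across every gene tested (Benjamini-Hochberg), stayed under 0.05. At day 2, 34 of 50 members rose and 1 fell, against a background of 24.1% of all 14524 genes tested called higher and 22.2% called lower. At day 4, 34 of 49 rose and 3 fell, beside 27.5% and 25.2% of all genes. At day 7, 27 of 49 rose and 4 fell, beside 28.4% and 26.6%. Derl3 did not pass the filter on low counts at days 4 and 7. Scaling by library totals in place of TMM factors moved the median log2 fold change of all genes to 0.09, 0.18 and 0.21, and the split of all calls from 3498 higher and 3225 lower to 4375 and 2348 at day 2, from 3968 and 3629 to 5569 and 2253 at day 4, and from 4119 and 3857 to 5768 and 2428 at day 7. Under it, members higher and lower numbered 37 and 1, 38 and 2, and 32 and 1. The median log2 fold change of the tested members was 0.54, 0.48 and 0.41 at days 2, 4 and 7, against -0.01, 0.01 and 0.01 for all genes tested.

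All 5 MI libraries lay above all 5 sham libraries for 24 members at day 2, where 14.5% of all genes did so, and below them for 1, where 15.7% of all genes did. The same counts were 26 and 2 at day 4, beside 19.3% and 18% of all genes. At day 7 they were 22 and 3, beside 20.3% and 20.3%. Together the members took between 0.477% and 0.667% of the counts of a sham library and between 0.620% and 1.01% of an MI library, with a mean of 0.892% in MI and 0.588% in sham at day 2.

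Members did not all follow 1 course. Of the 50, 22 were higher on all 3 days, 7 on days 2 and 4, 3 at day 2 alone and 4 on days 4 and 7. Dnajb9 was higher at day 2 and lower at days 4 and 7. Herpud1 was the member that was lower on all 3 days, Atf6 was lower at days 4 and 7, and Canx was lower at day 7. The 7 members that passed the test on no day were Ern1, Ddit3, Chac1, Sel1l, Syvn1, Derl1 and Sec23a. A call on 1 day and not on another is no test of the difference between days, which has its own fit.

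**Figure D1:**
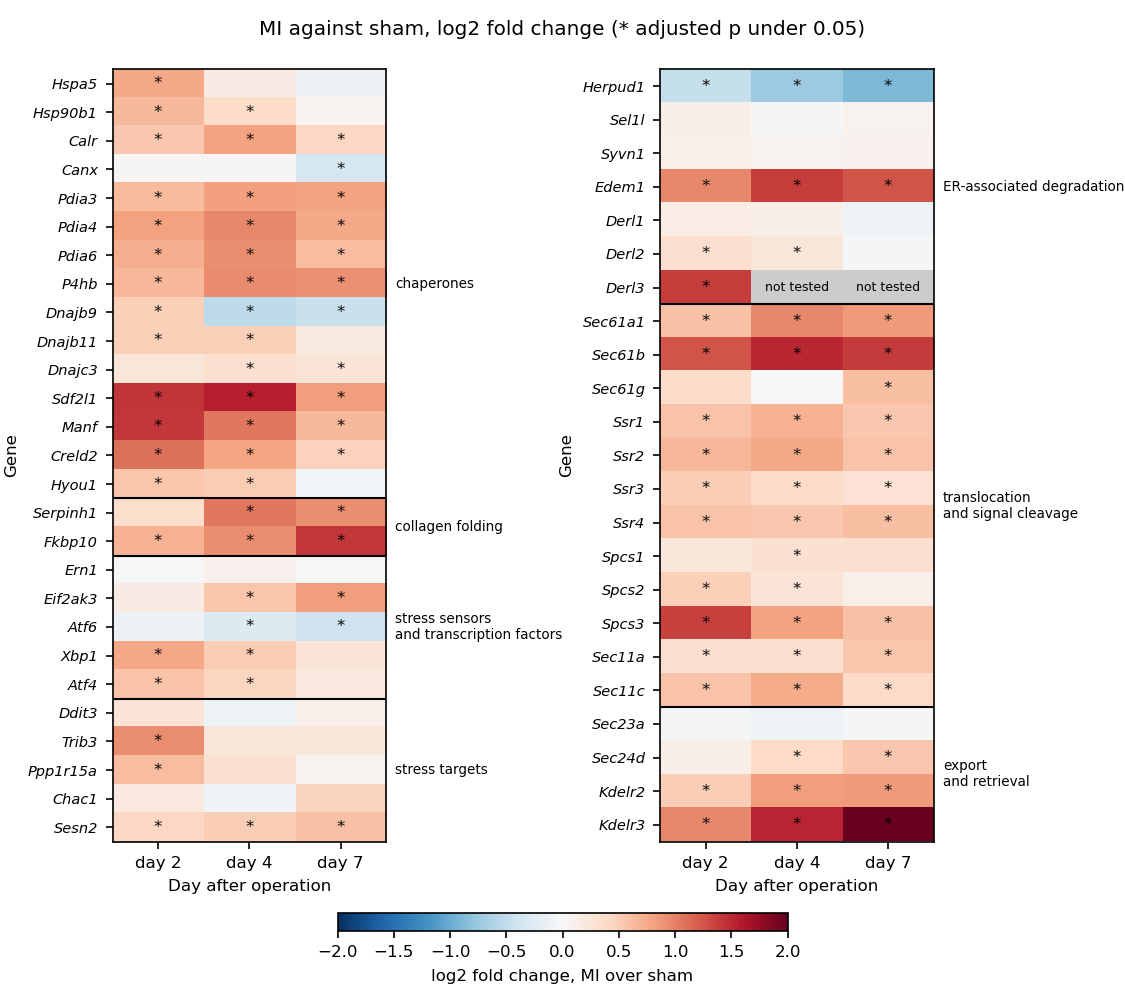
Heat map of the log2 fold change of MI over sham (colour) for the 50 members (vertical axis, by role) at days 2, 4 and 7 (horizontal axis), with a star where the edgeR adjusted p was under 0.05. Herpud1 is blue on all 3 days, and Kdelr3 darkens to 1.96 at day 7.

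The libraries held between 7841930 and 14070017 counts, with between 18668 and 20905 genes detected. Cardiomyocyte markers (Myh6, Tnnt2 and 4 others) were high throughout, with none of the 6 at 0 in any group. In 6 libraries the lung genes Sftpc and Scgb1a1 summed to at least 50 CPM, namely sham replicates 2 and 3 at day 4, sham replicates 1, 2 and 3 at day 7 and MI replicate 2 at day 7, where they reached 1481 CPM. MI replicate 4 at day 7 held the highest sum of 6 skeletal muscle markers, 1410 CPM, where the median of its group was 35.4. Without the 6 libraries, members higher and lower numbered 32 and 3 at day 4, and 21 and 2 at day 7. All genes called higher and lower went from 3968 and 3629 to 3959 and 3456 at day 4. At day 7 they went from 4119 and 3857 to 3060 and 2705. Of the day 7 sham libraries only replicates 4 and 5 were left, so calls lost there cannot be told apart from the loss of libraries. Day 2 had none of the 6 libraries.

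In whole tissue, a change in the number of cells of a type cannot be told apart from a change of RNA per cell. The sums of 6 cardiomyocyte markers were lower in every MI library than in every sham library of the same day, with medians of 35293 CPM in sham and 23565 in MI at day 2, 45938 and 24959 at day 4, and 43760 and 24069 at day 7. Of these 6 genes, 4, 5 and 5 were called lower at days 2, 4 and 7, and 0 higher. At day 2 the highest of their log2 fold changes was 0.12. Tnnt2, picked after its values were seen, spanned 6844 to 8239 CPM in sham and 6597 to 9650 in MI at day 2. Myh6, picked in the same way, spanned 7397 to 13916 in sham and 2965 to 5271 in MI. The sum of 6 fibroblast and myofibroblast markers overlapped between groups at day 2 (882 to 1741 in sham, 949 to 1367 in MI). It did not overlap at day 4 (1360 to 2318 against 2914 to 5362) or at day 7 (1188 to 1972 against 4243 to 8474). Dcn, a marker of this list named after its values were seen, went the other way at the earlier days, with log2 fold changes of -0.77 (adjusted p = 0.000194) at day 2, -0.49 (adjusted p = 0.00429) at day 4 and 0.42 (adjusted p = 0.0149) at day 7. The sum of 6 macrophage markers was 201 to 341 CPM in sham and 291 to 415 in MI at day 2. It did not overlap at day 4 (274 to 428 against 693 to 870) or at day 7 (235 to 333 against 478 to 969), and all 6 of these genes were called higher on both of those days. The sum of 6 monocyte and neutrophil markers spanned 25.8 to 47.6 CPM in sham hearts and 226 to 614 CPM in MI hearts at day 2, and its MI median was 274, 144 and 88.3 at days 2, 4 and 7. Markers of plasma cells, which are rich in ER, and of B cells had MI medians of 44.3, 110 and 236 CPM and sham medians of 27.0, 36.5 and 224. At day 4 their sums spanned 29.3 to 838 CPM across sham hearts against 59.01 to 162 across MI hearts, and at day 7 they spanned 41.97 to 495 against 164 to 2132, with MI replicate 4 the highest. Of the genes of this list that were tested, 1 of 3, 1 of 6 and 1 of 6 were called higher at days 2, 4 and 7, and 0 lower. At day 4 the median log2 fold change of the list was -1.65, with 1 gene above 0. The highest day 4 sums, in sham replicates 2 and 3 (332 and 838 CPM), came from libraries with lung transcripts. No gene of these 5 lists was at 0 across a whole group. The part of these cells in the members' levels was not tested.

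Most chaperones were higher in MI at day 2 and fewer at day 7. Of 15, 13 rose at day 2 (median log2 fold change 0.64), 12 rose and Dnajb9 fell at day 4 (median 0.78), and 9 rose while Canx and Dnajb9 fell at day 7 (median 0.41). Sdf2l1 and Manf had the highest fold changes of the role at day 2, and P4hb at day 7. With a single library left out, the day 7 median of the chaperones ranged from 0.28 to 0.47. At day 7, MI replicate 4 was the highest MI library for every chaperone but Sdf2l1, Manf, P4hb and Dnajb9. That library also held the highest sums of skeletal muscle markers and of plasma and B cell markers, whose part was not tested.

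Hspa5 encodes BiP, the central HSP70 chaperone of the ER lumen and a standard readout of the unfolded protein response. At day 2, Hspa5 read 902, 883, 576, 668 and 499 CPM in the sham libraries and 932, 842, 1103, 1427 and 1562 in the MI libraries. At day 4, Hspa5 stood at 584, 618, 546, 674 and 655 CPM in sham libraries and at 627, 913, 663, 552 and 674 in MI libraries. At day 7, Hspa5 levels were 629, 585, 558, 643 and 603 CPM in sham and 499, 516, 642, 693 and 448 CPM in MI. At day 2 MI replicate 2 lay within the sham values and the other 4 MI libraries above them, and at days 4 and 7 the groups overlapped widely. The log2 fold change of MI over sham, with its standard error (SE), was 0.75 ± 0.20 (adjusted p = 0.00706) at day 2, a rise of 1.68-fold, and 0.17 ± 0.12 (adjusted p = 0.254) and -0.12 ± 0.12 (adjusted p = 0.424) at days 4 and 7, which did not pass. With library totals in place of TMM factors the day 4 value was 0.35 (adjusted p = 0.0163).

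Sdf2l1 encodes an ER protein that works with BiP and its J-domain partners. At day 2, Sdf2l1 read 21.2, 19.2, 19.5, 13.5 and 11.4 CPM in the sham libraries and 33.05, 37.4, 46.3, 44.3 and 65.04 in the MI libraries. At day 4, Sdf2l1 stood at 12.1, 10.1, 12.5, 10.8 and 9.55 CPM in sham libraries and at 35.95, 41.9, 26.9, 31.6 and 24.9 in MI libraries. At day 7, Sdf2l1 levels were 10.5, 13.3, 13.2, 9.31 and 8.28 CPM in sham and 27.02, 15.1, 15.98, 25.4 and 14.6 CPM in MI. No MI library of any day overlapped a sham library of that day. For Sdf2l1, the log2 fold change was 1.43 ± 0.20 (adjusted p = 6.48e-05) at day 2, 1.56 ± 0.14 (adjusted p = 8.09e-07) at day 4 and 0.83 ± 0.21 (adjusted p = 0.00402) at day 7, which makes rises of 2.70-fold, 2.95-fold and 1.78-fold.

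P4hb encodes protein disulfide isomerase, which also serves as a subunit of the enzyme that hydroxylates collagen prolines. At day 2, P4hb read 391, 438, 429, 431 and 378 CPM in the sham libraries and 647, 636, 601, 704 and 649.7 in the MI libraries. At day 4, P4hb stood at 309, 325, 327, 297 and 296 CPM in sham libraries and at 627, 551, 516, 648 and 634 in MI libraries. At day 7, P4hb levels were 324, 356, 351, 304 and 305 CPM in sham and 688, 542, 806, 627 and 461 CPM in MI. The groups were apart on all 3 days. Its log2 fold change was 0.67 ± 0.08 (adjusted p = 8.64e-06), 0.95 ± 0.09 (adjusted p = 1.22e-06) and 0.92 ± 0.14 (adjusted p = 8.46e-05) at days 2, 4 and 7.

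Dnajb9 encodes ERdj4, a J-domain partner of BiP that holds IRE1 in check. At day 2, Dnajb9 read 81.3, 84.1, 82.8, 78.3 and 78.8 CPM in the sham libraries and 88.7, 76.8, 109, 148 and 130.4 in the MI libraries. At day 4, Dnajb9 stood at 69.6, 72.1, 52.1, 67.1 and 68.2 CPM in sham libraries and at 40.3, 50.2, 44.01, 50.1 and 42.8 in MI libraries. At day 7, Dnajb9 levels were 68.5, 63.9, 70.3, 65.9 and 61.99 CPM in sham and 62.3, 44.4, 39.9, 51.5 and 45.4 CPM in MI. At day 2 the single MI library under the sham values was replicate 2, at day 4 every MI library lay below every sham library, and at day 7 MI replicate 1 lay within the sham values. For Dnajb9, the log2 fold change was 0.47 ± 0.14 (adjusted p = 0.0149) at day 2, -0.52 ± 0.10 (adjusted p = 0.000421) at day 4 and -0.45 ± 0.11 (adjusted p = 0.00442) at day 7. The day 7 call was lost with library totals (-0.25, adjusted p = 0.0679) and without the libraries holding lung transcripts (-0.39, adjusted p = 0.123).

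Canx encodes calnexin, the membrane-bound lectin chaperone that holds newly made glycoproteins. At day 2, Canx read 483, 521, 482, 519.5 and 449.6 CPM in the sham libraries and 479, 489, 459, 494 and 551 in the MI libraries. At day 4, Canx stood at 381, 385, 333, 402 and 437 CPM in sham libraries and at 373, 423, 391, 357 and 409 in MI libraries. At day 7, Canx levels were 453, 429, 404, 423 and 466 CPM in sham and 324, 374, 328, 380.2 and 333 CPM in MI. Sham and MI values overlapped at days 2 and 4 and were apart at day 7, with MI lower. For Canx, the log2 fold change was 0.03 ± 0.08 (adjusted p = 0.774), 0.02 ± 0.09 (adjusted p = 0.835) and -0.33 ± 0.09 (adjusted p = 0.00722). Its day 7 call was lost with library totals (-0.13, adjusted p = 0.241) and without the lung-transcript libraries (-0.41, adjusted p = 0.0673), and at day 4 library totals gave 0.20 (adjusted p = 0.0415).

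The other 10 chaperones are given by their log2 fold changes at days 2, 4 and 7. The disulfide isomerases Pdia3, Pdia4 and Pdia6 rose on all 3 days, with log2 fold changes from 0.62 (Pdia6 at day 7) to 0.97 (Pdia4 at day 4). Calr, the soluble lectin partner of calnexin, rose by 0.53 ± 0.10, 0.80 ± 0.08 and 0.41 ± 0.11. Manf, an ER resident that is secreted under stress, rose by 1.41 ± 0.17, 1.06 ± 0.11 and 0.64 ± 0.19, and Creld2, a stress-induced ER protein, by 1.10 ± 0.23, 0.78 ± 0.14 and 0.46 ± 0.16. Hsp90b1, the HSP90 of the ER known as GRP94, rose at days 2 and 4 (0.64 ± 0.17 and 0.36 ± 0.09), and its day 7 value was 0.04 ± 0.12. Hyou1, the exchange factor of BiP, rose at days 2 and 4 (0.56 ± 0.17 and 0.52 ± 0.12) and gave -0.06 ± 0.13 at day 7. The J-domain partner Dnajb11 rose at days 2 and 4 (0.47 ± 0.08 and 0.48 ± 0.07), and Dnajc3, the co-chaperone also called p58IPK, at days 4 and 7 (0.34 ± 0.10 and 0.26 ± 0.09). Some of these calls rested on few libraries. Hyou1 at day 2 was lost without sham replicate 3 (adjusted p = 0.0516) and with no filter on low counts (0.0726), Creld2 at day 7 without any 1 of 3 libraries (sham replicates 4 and 5 and MI replicate 4), and Dnajc3 at day 7 without any 1 of 5 libraries (sham replicates 1, 2, 3 and 5 and MI replicate 4). Without the lung-transcript libraries the day 7 calls of Calr (0.46, adjusted p = 0.0829), Creld2 (0.59, adjusted p = 0.0921) and Dnajc3 (0.23, adjusted p = 0.266) were lost, as was the day 4 call of Dnajc3 (0.26, adjusted p = 0.0672).

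**Figure D2:**
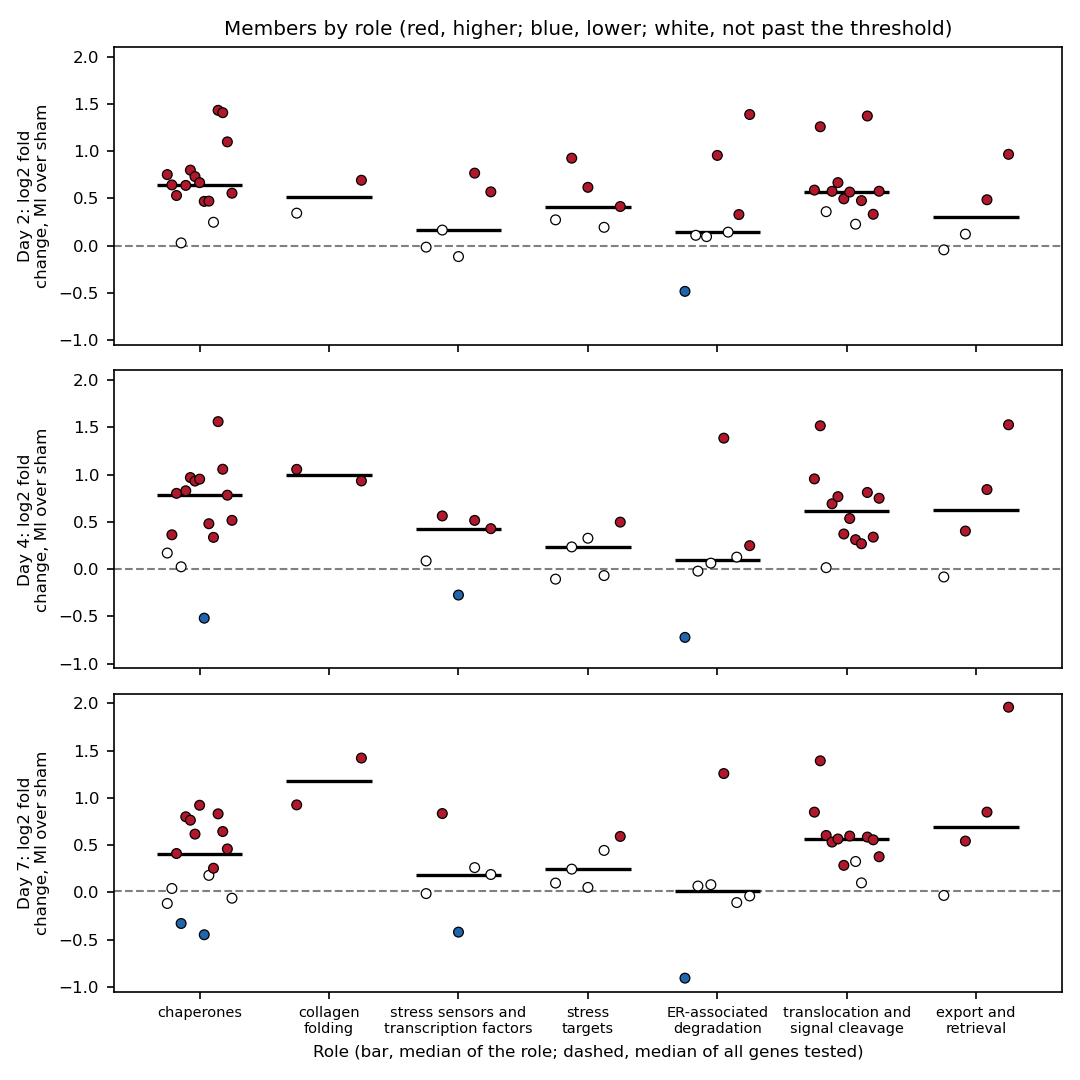
Log2 fold change of MI over sham (vertical axis) of each tested member, by role (horizontal axis), with 1 panel for each day, red for called higher, blue for called lower and white for not called; bars are role medians and dashed lines the median of all genes tested. Role medians run from 0.02 for ER-associated degradation at day 7 to 1.17 for collagen folding at day 7.

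Both collagen folding factors were higher at days 4 and 7, when the collagen genes were also higher. Serpinh1 encodes HSP47, the chaperone specific to procollagen. At day 2, Serpinh1 read 721, 427, 434, 469 and 352 CPM in the sham libraries and 552, 709.7, 513, 495 and 741 in the MI libraries. At day 4, Serpinh1 stood at 531, 436, 458, 395 and 317 CPM in sham libraries and at 904, 909, 852, 749 and 986 in MI libraries. At day 7, Serpinh1 levels were 352, 422, 349, 421 and 337 CPM in sham and 706, 758, 540.4, 965 and 618 CPM in MI. The groups overlapped at day 2, where sham replicate 1 was the second highest of the 10 libraries, and were apart at days 4 and 7. For Serpinh1, the log2 fold change was 0.35 ± 0.18 (adjusted p = 0.128), 1.05 ± 0.13 (adjusted p = 8.78e-06) and 0.93 ± 0.15 (adjusted p = 0.000142), and without sham replicate 1 the day 2 value was 0.54 (adjusted p = 0.00473).

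Fkbp10 encodes FKBP65, a proline isomerase that acts on collagen. At day 2, Fkbp10 read 40.6, 47.4, 39.7, 39.05 and 33.4 CPM in the sham libraries and 67.1, 56.4, 60.5, 76.3 and 58.9 in the MI libraries. At day 4, Fkbp10 stood at 61.01, 43.3, 44.7, 42.4 and 33.96 CPM in sham libraries and at 84.3, 70.6, 71.8, 92.3 and 107 in MI libraries. At day 7, Fkbp10 levels were 31.9, 36.1, 28.1, 34.4 and 25.8 CPM in sham and 77.6, 82.1, 111, 94.96 and 55.5 CPM in MI. MI values lay above sham values on each day. For Fkbp10, the log2 fold change was 0.69 ± 0.10 (adjusted p = 7.63e-05), 0.93 ± 0.15 (adjusted p = 0.000131) and 1.42 ± 0.16 (adjusted p = 1.13e-05), a rise of 2.68-fold at day 7.

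The sensors and transcription factors of the unfolded protein response moved in different directions. Xbp1 and Atf4 rose at days 2 and 4, Eif2ak3 rose at days 4 and 7, Atf6 fell at days 4 and 7, and Ern1 passed on no day. Role medians were 0.17, 0.43 and 0.19. These are levels of the messages, and they do not measure whether a sensor was active.

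Ern1 encodes IRE1α, the kinase and RNase that splices Xbp1 message. At day 2, Ern1 read 22.6, 29.7, 21.9, 24.2 and 22.6 CPM in the sham libraries and 26.3, 22.9, 23.7, 23.1 and 22.4 in the MI libraries. At day 4, Ern1 stood at 27.1, 22.1, 29.8, 21.6 and 28.4 CPM in sham libraries and at 26.8, 22.98, 29.5, 26.5 and 29.98 in MI libraries. At day 7, Ern1 levels were 30.4, 30.1, 22.6, 28.6 and 37.002 CPM in sham and 27.9, 27.7, 35.7, 29.4 and 27.1 CPM in MI. Sham and MI values overlapped on all 3 days. For Ern1, the log2 fold change was -0.01 ± 0.10 (adjusted p = 0.915), 0.09 ± 0.11 (adjusted p = 0.545) and -0.01 ± 0.12 (adjusted p = 0.941).

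Xbp1 encodes the transcription factor made after that splicing, and gene counts do not separate its spliced from its unspliced message. At day 2, Xbp1 read 133, 158, 113, 109 and 100.3 CPM in the sham libraries and 185, 165, 207, 228 and 246 in the MI libraries. At day 4, Xbp1 stood at 108, 101, 101, 96.1 and 99.1 CPM in sham libraries and at 152, 148, 124, 161 and 129 in MI libraries. At day 7, Xbp1 levels were 109.7, 113, 122, 101 and 102 CPM in sham and 147, 120.2, 143, 151 and 98.01 CPM in MI. The groups were apart at days 2 and 4 and overlapped at day 7, where MI replicate 5 was the lowest of the 10 libraries. For Xbp1, the log2 fold change was 0.77 ± 0.13 (adjusted p = 0.00026), 0.51 ± 0.09 (adjusted p = 0.000161) and 0.26 ± 0.12 (adjusted p = 0.0692). At day 7 it passed without MI replicate 5 (0.35, adjusted p = 0.00821) and with library totals (0.46, adjusted p = 0.00516).

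Eif2ak3 encodes PERK, the kinase that phosphorylates the translation factor eIF2α. At day 2, Eif2ak3 read 16.9, 15.9, 12.8, 15.1 and 12.96 CPM in the sham libraries and 15.7, 17.4, 16.5, 17.9 and 13.8 in the MI libraries. At day 4, Eif2ak3 stood at 15.6, 15.5, 19.99, 13.5 and 15.4 CPM in sham libraries and at 22.9996, 22.8, 22.1, 21.7 and 27.6 in MI libraries. At day 7, Eif2ak3 levels were 15.6, 16.8, 13.995, 13.8 and 11.5 CPM in sham and 20.2, 27.3, 33.1, 26.9 and 21.1 CPM in MI. Values overlapped at day 2 and did not at days 4 and 7. For Eif2ak3, the log2 fold change was 0.17 ± 0.11 (adjusted p = 0.232), 0.56 ± 0.12 (adjusted p = 0.000935) and 0.83 ± 0.15 (adjusted p = 0.000304).

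Atf4 encodes the transcription factor whose message is translated when eIF2α is phosphorylated. At day 2, Atf4 read 115, 93.8, 139, 93.03 and 105 CPM in the sham libraries and 159.6, 142, 139.7, 174 and 183 in the MI libraries. At day 4, Atf4 stood at 118, 87.2, 68.5, 82.9 and 82.6 CPM in sham libraries and at 123, 122, 99.05, 128 and 111 in MI libraries. At day 7, Atf4 levels were 79.96, 100.2, 100.4, 113 and 88.2 CPM in sham and 132, 90.6, 112, 107 and 108 CPM in MI. All MI values of day 2 lay above the sham values, and the groups overlapped on the later days, at day 4 through sham replicate 1. For Atf4, the log2 fold change was 0.57 ± 0.11 (adjusted p = 0.000787), 0.43 ± 0.12 (adjusted p = 0.00812) and 0.19 ± 0.11 (adjusted p = 0.179), with a day 7 value of 0.38 (adjusted p = 0.0108) under library totals.

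Atf6 encodes the membrane-bound factor that is cut in the Golgi to free its active part. At day 2, Atf6 read 225, 231, 185, 222 and 202 CPM in the sham libraries and 168, 178, 207, 230.3 and 187 in the MI libraries. At day 4, Atf6 stood at 220.5, 171, 167, 197 and 194 CPM in sham libraries and at 143, 168, 153, 148 and 165 in MI libraries. At day 7, Atf6 levels were 204, 169, 166, 216 and 197 CPM in sham and 118, 153, 154, 142 and 146 CPM in MI. At day 4 MI replicate 2 and sham replicate 3 lay within 2 CPM of each other, and at day 7 no values overlapped. For Atf6, the log2 fold change was -0.11 ± 0.10 (adjusted p = 0.35), -0.27 ± 0.09 (adjusted p = 0.0159) and -0.42 ± 0.10 (adjusted p = 0.00343). With library totals the values of days 4 and 7 were -0.10 (adjusted p = 0.338) and -0.22 (adjusted p = 0.0799), so neither call held under that scaling.

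The stress targets lie downstream of the sensors, most of them of ATF4. Of 5, 3 rose at day 2 (Trib3, Ppp1r15a and Sesn2), and at days 4 and 7 Sesn2 alone did, with role medians of 0.42, 0.23 and 0.25. Of all genes tested, 24.1%, 27.5% and 28.4% were called higher at days 2, 4 and 7. The counts of days 4 and 7 lay below those shares.

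Ddit3 encodes CHOP, the transcription factor linked to death of stressed cells. At day 2, Ddit3 read 22.9, 17.8, 24.7, 15.5 and 16.5 CPM in the sham libraries and 21.6, 18.1, 20.5, 28.6 and 26.98 in the MI libraries. At day 4, Ddit3 stood at 21.8, 18.5, 16.1, 19.9 and 23.4 CPM in sham libraries and at 21.3, 22.1, 15.97, 18.9 and 13.4 in MI libraries. At day 7, Ddit3 levels were 15.97, 19.1, 17.6, 22.5 and 20.2 CPM in sham and 26.6, 16.5, 16.5, 18.98 and 23.7 CPM in MI. Sham and MI overlapped on each day. For Ddit3, the log2 fold change was 0.27 ± 0.15 (adjusted p = 0.152), -0.11 ± 0.14 (adjusted p = 0.549) and 0.10 ± 0.15 (adjusted p = 0.606).

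Trib3 encodes a pseudokinase induced through ATF4 and CHOP. At day 2, Trib3 read 3.65, 3.97, 2.52, 2.45 and 2.74 CPM in the sham libraries and 3.58, 4.52, 5.72, 9.29 and 5.49 in the MI libraries. At day 4, Trib3 stood at 3.93, 3.796, 3.35, 2.91 and 3.302 CPM in sham libraries and at 3.47, 3.31, 4.77, 4.79 and 3.797 in MI libraries. At day 7, Trib3 levels were 4.02, 3.59, 2.75, 4.32 and 3.04 CPM in sham and 4.33, 3.74, 5.71, 3.87 and 3.44 CPM in MI. MI replicate 4 of day 2 held the highest value of the 30 libraries, and MI replicate 1 of that day lay within the sham values. For Trib3, the log2 fold change was 0.93 ± 0.24 (adjusted p = 0.00581), 0.23 ± 0.18 (adjusted p = 0.293) and 0.25 ± 0.20 (adjusted p = 0.31).

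Ppp1r15a encodes GADD34, the phosphatase subunit that reverses eIF2α phosphorylation. At day 2, Ppp1r15a read 39.5, 40.7, 43.2, 38.1 and 46.4 CPM in the sham libraries and 56.1, 50.1, 55.7, 79.6 and 72.9 in the MI libraries. At day 4, Ppp1r15a stood at 36.3, 31.2, 23.7, 30.8 and 43.4 CPM in sham libraries and at 48.2, 38.8, 32.9, 45.7 and 39.7 in MI libraries. At day 7, Ppp1r15a levels were 38.4, 37.6, 41.4, 46.2 and 41.4 CPM in sham and 48.3, 36.1, 53.04, 42.8 and 33.03 CPM in MI. MI and sham were apart at day 2 and overlapped afterwards. For Ppp1r15a, the log2 fold change was 0.62 ± 0.12 (adjusted p = 0.000625), 0.33 ± 0.14 (adjusted p = 0.0664) and 0.05 ± 0.12 (adjusted p = 0.734). The day 4 value passed under library totals (0.51, adjusted p = 0.00723) and without sham replicate 5 or MI replicate 3.

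Chac1 encodes an enzyme that breaks down glutathione and is a target of ATF4. At day 2, Chac1 read 1.12, 3.49, 1.49, 4.22 and 3.499 CPM in the sham libraries and 4.38, 1.93, 2.86, 3.48 and 3.22 in the MI libraries. At day 4, Chac1 stood at 2.92, 2.301, 2.08, 1.68 and 3.54 CPM in sham libraries and at 2.53, 1.97, 1.91, 2.53 and 2.85 in MI libraries. At day 7, Chac1 levels were 3.16, 2.02, 3.33, 0.8098 and 3.45 CPM in sham and 4.86, 4.12, 3.63, 2.87 and 2.16 CPM in MI. These are low levels, and values overlapped on every day. For Chac1, the log2 fold change was 0.20 ± 0.32 (adjusted p = 0.642), -0.07 ± 0.24 (adjusted p = 0.826) and 0.44 ± 0.33 (adjusted p = 0.273).

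Sesn2 encodes sestrin 2, a stress protein that restrains growth signalling through mTORC1. At day 2, Sesn2 read 9.27, 8.01, 7.01, 7.17 and 6.24 CPM in the sham libraries and 11.3, 7.56, 8.89, 11.1 and 10.8 in the MI libraries. At day 4, Sesn2 stood at 11.1, 7.02, 12.4, 9.05 and 8.37 CPM in sham libraries and at 13.8, 12.4, 13.2, 14.8 and 12.8 in MI libraries. At day 7, Sesn2 levels were 8.42, 7.85, 8.37, 7.42 and 6.63 CPM in sham and 13.2, 8.52, 14.3, 9.22 and 13.6 CPM in MI. The groups overlapped at day 2 and were narrowly apart at both later days. For Sesn2, the log2 fold change was 0.42 ± 0.15 (adjusted p = 0.0287), 0.50 ± 0.15 (adjusted p = 0.0105) and 0.59 ± 0.17 (adjusted p = 0.00861). The day 2 call was lost without any 1 of 6 libraries (sham replicates 3, 4 and 5 and MI replicates 1, 4 and 5), and limma voom gave an adjusted p of 0.0769 at day 7.

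**Figure D3:**
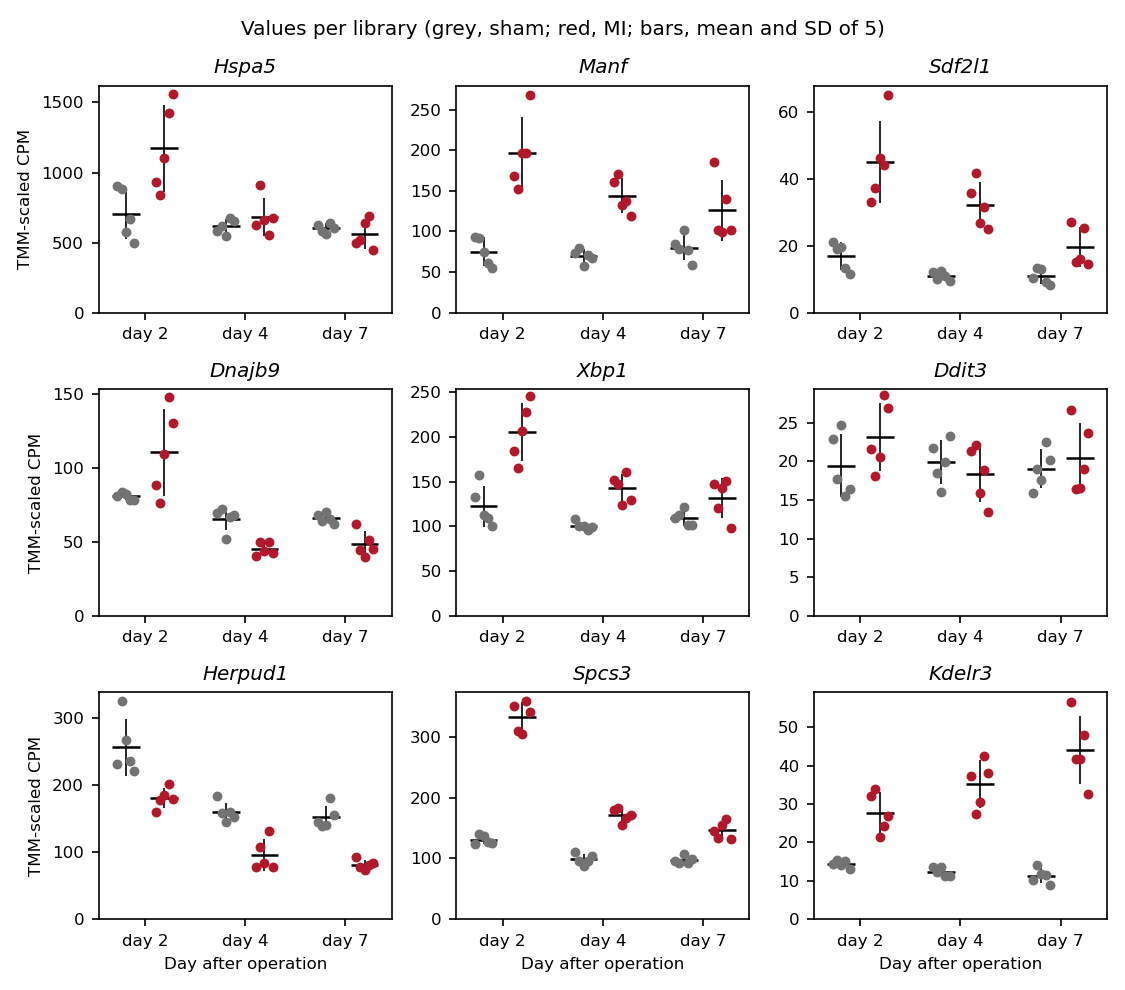
TMM-scaled CPM (vertical axes, from 0) in each library for 9 members at days 2, 4 and 7 (horizontal axes), with grey points for sham, red for MI and bars for mean and SD of 5 libraries. Spcs3 is highest in MI at day 2, Kdelr3 in MI at day 7, and Ddit3 overlaps on all days.

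ER-associated degradation held the member that fell on all 3 days beside 1 that rose on all 3. Of 7 members tested at day 2, 3 rose and 1 fell. Of 6 at day 4, 2 rose and 1 fell, and of 6 at day 7, 1 rose and 1 fell. Beside the shares of all genes called higher (24.1%, 27.5% and 28.4%), the counts of days 4 and 7 do not set the role apart. Role medians were 0.14, 0.09 and 0.02.

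Herpud1 encodes HERP, a membrane protein that gathers the degradation complex and is known as a stress-induced gene. At day 2, Herpud1 read 232, 326, 268, 237 and 221 CPM in the sham libraries and 160.1, 178, 186, 202 and 179.8 in the MI libraries. At day 4, Herpud1 stood at 183, 158, 146, 159.9 and 153 CPM in sham libraries and at 78.3, 108, 83.5, 132 and 78.2 in MI libraries. At day 7, Herpud1 levels were 146, 139, 140.1, 181 and 156 CPM in sham and 92.3, 78.2, 73.2, 80.4 and 83.4 CPM in MI. Every MI library lay below every sham library of its day. For Herpud1, the log2 fold change was -0.48 ± 0.10 (adjusted p = 0.00164), -0.72 ± 0.14 (adjusted p = 0.000522) and -0.91 ± 0.10 (adjusted p = 9.41e-06), which makes MI 1.40-fold, 1.65-fold and 1.87-fold lower. The call held on all 3 days in each alternative of scaling, filter, tool and library left out that was run.

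Edem1 encodes a lectin that takes misfolded glycoproteins out of the folding cycle. At day 2, Edem1 read 41.5, 36.9, 26.6, 32.6 and 24.97 CPM in the sham libraries and 69.1, 64.2, 55.4, 61.1 and 61.4 in the MI libraries. At day 4, Edem1 stood at 36.1, 34.4, 40.1, 25.6 and 25.002 CPM in sham libraries and at 83.1, 80.9, 81.2, 78.4 and 94.2 in MI libraries. At day 7, Edem1 levels were 28.1, 36.01, 25.1, 28.9 and 23.9 CPM in sham and 64.9, 54.9, 91.9, 84.6 and 45.4 CPM in MI. MI values were above sham values throughout, with no overlap on any day. For Edem1, the log2 fold change was 0.96 ± 0.12 (adjusted p = 2.44e-05), 1.38 ± 0.13 (adjusted p = 7.22e-07) and 1.26 ± 0.18 (adjusted p = 7.02e-05), so Edem1 and Herpud1 differed in direction on each day.

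Derl3 encodes a member of the derlin family, whose proteins help to move substrates out of the ER. At day 2, Derl3 read 0.937, 0.317, 1.31, 0.506 and 0.567 CPM in the sham libraries and 0.896, 0.742, 2.22, 1.89 and 3.69 in the MI libraries. At day 4, Derl3 stood at 0.449, 0.345, 1.16, 0.112 and 0.236 CPM in sham libraries and at 0.563, 0, 0.174, 0.452 and 0.158 in MI libraries. At day 7, Derl3 levels were 0.6695, 0.897, 0.688, 0 and 0.552 CPM in sham and 0.317, 0.468, 0.695, 2.87 and 0.393 CPM in MI. These are values of few reads, as 3 counts make between 0.218 and 0.414 CPM on this scale, and groups overlapped on each day. The highest MI value of day 7 was that of replicate 4, the library with the highest sum of plasma and B cell markers (2132 CPM). The log2 fold change at day 2 was 1.39 ± 0.46 (adjusted p = 0.0225), and the call was lost without sham replicate 2, sham replicate 4 or MI replicate 5, and with all 30 libraries in 1 fit (adjusted p = 0.0541).

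The ubiquitin ligase Syvn1 (HRD1) and its partner Sel1l passed on no day, with log2 fold changes between -0.02 and 0.11. Derl1 passed on no day (0.14 ± 0.07, 0.13 ± 0.07 and -0.11 ± 0.08), and with library totals it passed at day 2 (0.24, adjusted p = 0.00993) and day 4 (0.30, adjusted p = 0.00159). Derl2 rose at day 2 (0.33 ± 0.07, adjusted p = 0.00109) and at day 4 (0.25 ± 0.10, adjusted p = 0.0494). That day 4 call was lost without any 1 of 7 libraries and with DESeq2 (adjusted p = 0.0743).

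Most genes of translocation and signal cleavage were higher on all 3 days. Of 12, 10 rose at day 2, 11 at day 4 and 10 at day 7, with medians of 0.57, 0.61 and 0.56, and the others did not pass. Spcs3 had the highest fold change of the role at day 2, and Sec61b at days 4 and 7.

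Spcs3 encodes a subunit of the signal peptidase complex, which cuts signal peptides from proteins entering the ER. At day 2, Spcs3 read 124, 140.4, 136, 127 and 126 CPM in the sham libraries and 351, 310.4, 306, 359.8 and 342 in the MI libraries. At day 4, Spcs3 stood at 110.0, 95.7, 87.4, 95.2 and 104 CPM in sham libraries and at 179.7, 183, 155, 166 and 171 in MI libraries. At day 7, Spcs3 levels were 95.1, 92.1, 107, 91.8 and 99.1 CPM in sham and 145, 134, 155, 166 and 132 CPM in MI. MI and sham libraries were apart on all days, and the lowest MI library of day 2 held 306 CPM against 140.4 in the highest sham library. For Spcs3, the log2 fold change was 1.37 ± 0.08 (adjusted p = 1.66e-08), 0.81 ± 0.08 (adjusted p = 1.55e-06) and 0.59 ± 0.09 (adjusted p = 8.52e-05), rises of 2.59-fold at day 2 and 1.75-fold at day 4.

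Spcs1 and Spcs2 encode other subunits of the same complex. For Spcs1 at day 2, the sham libraries gave 78.8, 75.9, 115, 82.4 and 93.3 CPM and the MI libraries 107, 109, 97.4, 94.1 and 106. For Spcs1 at day 4, values were 63.03, 68.9, 51.3, 63.9 and 55.8 CPM in sham and 75.8, 70.2, 74.05, 87.96 and 64.1 in MI. For Spcs1 at day 7, sham hearts gave 60.9, 55.5, 78.5, 68.2 and 59.1 CPM and MI hearts 107, 74.4, 59.7, 82.1 and 81.98. Spcs1 values overlapped on all 3 days, with a log2 fold change of 0.23 ± 0.10 (adjusted p = 0.0798), 0.31 ± 0.10 (adjusted p = 0.0178) and 0.33 ± 0.15 (adjusted p = 0.0722). Its values at days 2 and 7 passed with library totals (0.32, adjusted p = 0.0173, and 0.52, adjusted p = 0.0064) and with limma voom (0.28, adjusted p = 0.0182, and 0.32, adjusted p = 0.0163). For Spcs2 at day 2, the sham libraries gave 53.4, 65.1, 67.4, 51.03 and 55.3 CPM and the MI libraries 79.7, 82.7, 75.3, 77.1 and 86.3. For Spcs2 at day 4, values were 59.2, 66.3, 60.7, 62.7 and 59.1 CPM in sham and 72.3, 78.4, 71.7, 77.4 and 67.6 in MI. For Spcs2 at day 7, sham hearts gave 66.7, 64.6, 69.6, 61.8 and 61.7 CPM and MI hearts 79.1, 67.2, 63.1, 76.99 and 63.2. Spcs2 was apart at days 2 and 4 and overlapped at day 7, with a log2 fold change of 0.48 ± 0.09 (adjusted p = 0.000411), 0.27 ± 0.07 (adjusted p = 0.00719) and 0.10 ± 0.09 (adjusted p = 0.353), and library totals gave 0.30 (adjusted p = 0.0132) at day 7.

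Sec61b and Sec61g encode the small subunits of the SEC61 channel, and both have near-copies elsewhere in the genome that can share reads. For Sec61b at day 2, the sham libraries gave 5.71, 5.16, 8.78, 6.66 and 7.66 CPM and the MI libraries 17.3, 18.98, 15.4, 13.6 and 14.6. For Sec61b at day 4, values were 5.16, 6.44, 6.13, 3.91 and 4.48 CPM in sham and 16.4, 14.04, 13.9, 18.4 and 11.5 in MI. For Sec61b at day 7, sham hearts gave 5.74, 6.51, 8.604, 4.86 and 4.42 CPM and MI hearts 23.8, 13.2, 14.7, 15.1 and 13.3. Sec61b was apart on each day, with a log2 fold change of 1.26 ± 0.15 (adjusted p = 9.6e-06), 1.52 ± 0.17 (adjusted p = 4.51e-06) and 1.39 ± 0.21 (adjusted p = 0.000109). Gm10320, its near-copy and named after its counts were seen, held 130.6% of the counts of Sec61b itself and was also called higher, with log2 fold changes of 1.32, 1.57 and 1.59.

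For Sec61g at day 2, the sham libraries gave 1.12, 1.67, 2.802, 2.02 and 2.36 CPM and the MI libraries 2.69, 2.82, 2.44, 1.96 and 2.75. For Sec61g at day 4, values were 1.23, 1.495, 1.502, 1.34 and 1.65 CPM in sham and 1.596, 1.34, 1.302, 1.99 and 1.03 in MI. For Sec61g at day 7, sham hearts gave 1.63, 1.23, 1.38, 1.21 and 1.24 CPM and MI hearts 2.43, 1.97, 1.93, 1.86 and 2.16. These levels are uncertain, since transcripts of near-copies, chiefly Gm10177, which was also named after its counts were seen, held 2447% of the counts of Sec61g. The log2 fold change of Sec61g was 0.36 ± 0.23 (adjusted p = 0.216), 0.02 ± 0.25 (adjusted p = 0.964) and 0.60 ± 0.22 (adjusted p = 0.0316), and its day 7 call was lost without any 1 of 6 libraries and with DESeq2 (adjusted p = 0.0851). Gm10177 gave 0.73, 1.02 and 0.89 and was called higher on each day. Summed over Sec61g and 4 near-copies with counts, levels spanned 30.2 to 62.0 CPM for sham and 56.0 to 83.2 CPM for MI at day 2, from 20.9 to 31.2 and 32.4 to 61.7 at day 4, and from 22.1 to 47.1 and 39.8 to 88.7 at day 7.

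The pore subunit Sec61a1 rose on all 3 days (0.59 ± 0.10, 0.95 ± 0.10 and 0.85 ± 0.13). All 4 subunits of the translocon-associated TRAP complex, Ssr1 to Ssr4, rose on each day, with log2 fold changes from 0.29 (Ssr3 at day 7) to 0.77 (Ssr2 at day 4). The catalytic signal peptidase subunits Sec11a (0.33, 0.34 and 0.56) and Sec11c (0.58, 0.75 and 0.38) did so too. At day 7 the call of Sec11c was lost without any 1 of 7 libraries, that of Ssr4 without sham replicate 4 (adjusted p = 0.0504), and that of Ssr3 with no filter on low counts (adjusted p = 0.0556) and without the lung-transcript libraries (adjusted p = 0.124).

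Export and retrieval held the member with the highest fold change of the module. Of 4 members, 2 rose at day 2 and 3 at days 4 and 7, with medians of 0.30, 0.62 and 0.70.

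Kdelr3 and Kdelr2 encode receptors that return escaped ER proteins from the Golgi by their KDEL tails. For Kdelr3 at day 2, the sham libraries gave 14.2, 15.3, 14.1, 15.3 and 13.1 CPM and the MI libraries 32.2, 34.04, 21.5, 24.2 and 26.98. For Kdelr3 at day 4, values were 13.5, 12.2, 13.5, 11.2 and 11.3 CPM in sham and 37.4, 27.3, 30.6, 42.6 and 38.2 in MI. For Kdelr3 at day 7, sham hearts gave 10.1, 14.1, 11.7, 11.6 and 8.84 CPM and MI hearts 56.7, 41.7, 41.7, 48.02 and 32.6. The sham values stayed between 8.84 and 15.3 CPM on all days, and no MI library overlapped them. The log2 fold change of Kdelr3 was 0.97 ± 0.12 (adjusted p = 1.85e-05), 1.53 ± 0.13 (adjusted p = 3.49e-07) and 1.96 ± 0.16 (adjusted p = 1.55e-06), and its 3.89-fold rise at day 7 was the highest of the members tested. For Kdelr2 at day 2, the sham libraries gave 55.9, 56.8, 52.7, 56.3 and 49.8 CPM and the MI libraries 74.2, 87.1, 59.7, 78.2 and 75.7. For Kdelr2 at day 4, values were 45.9, 48.5, 44.5, 45.3 and 40.6 CPM in sham and 80.1, 66.8, 77.6, 87.4 and 86.9 in MI. For Kdelr2 at day 7, sham hearts gave 41.7, 47.6, 41.6, 41.3 and 36.7 CPM and MI hearts 77.1, 74.1, 83.5, 87.1 and 56.7. Kdelr2 was apart on all 3 days too, with log2 fold changes of 0.49 ± 0.09 (adjusted p = 0.000583), 0.84 ± 0.09 (adjusted p = 2.75e-06) and 0.85 ± 0.11 (adjusted p = 3.47e-05).

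Sec23a and Sec24d encode proteins of the inner COPII coat, which forms vesicles that leave the ER. For Sec23a at day 2, the sham libraries gave 83.9, 92.02, 67.9, 89.6 and 76.8 CPM and the MI libraries 71.4, 77.4, 72.96, 92.7 and 78.1. For Sec23a at day 4, values were 86.8, 87.3, 75.005, 89.4 and 82.4 CPM in sham and 72.6, 81.3, 80.6, 67.5 and 91.6 in MI. For Sec23a at day 7, sham hearts gave 77.4, 78.1, 72.96, 83.4 and 81.5 CPM and MI hearts 68.6, 79.8, 80.7, 94.2 and 62.9. Sec23a overlapped on all 3 days and passed on none, with log2 fold changes of -0.04 ± 0.10 (adjusted p = 0.738), -0.08 ± 0.09 (adjusted p = 0.441) and -0.03 ± 0.10 (adjusted p = 0.804). Sec24d gave 0.12 ± 0.09 at day 2, and rose by 0.40 ± 0.11 at day 4 and 0.54 ± 0.11 at day 7. Without the lung-transcript libraries its day 7 value was 0.44 (adjusted p = 0.0751).

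Levels between members are compared only per kilobase of exon. In day 2 sham hearts the highest mean TMM-scaled CPM per kilobase was that of Serpinh1 (197), followed by Hspa5 (167), Calr (162), P4hb (144) and Herpud1 (110). Atf4 (46.3), Xbp1 (37.7) and Atf6 (23.1), which encodes both a sensor and a transcription factor, lay far above the sensors Ern1 (2.96) and Eif2ak3 (2.44) on this scale. Leaving out Sec61g, whose near-copies held far more counts than it did, Trib3 (1.44), Chac1 (1.69) and Derl3 (0.365) were lowest.

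Whether the effect of MI itself changed between days was tested in 1 fit of all 30 libraries, as the log2 fold change of the later day minus that of the earlier day. These 3 comparisons share libraries, and those from day 2 cross a difference in the first number of the library descriptions. From day 2 to 7, the effect was higher for 5 members and lower for 9 of 50, against 10.1% and 9.11% of all 15537 genes tested, so the higher count lay at the share of all genes. On this interval DESeq2 gave 4 higher and 14 lower, limma voom 6 and 14, median-ratio factors 3 and 13, no filter on low counts 3 and 6, and library totals 6 and 3, which turned the balance. Over all 15537 genes, DESeq2 called 1532 higher and 1951 lower, limma voom 2051 and 1931, and median-ratio factors 1405 and 1737. With no filter 1123 and 1277 of 28364 genes were called, and with library totals 1909 and 1002 of 15537. From day 2 to 4 the effect in the main fit was higher for 0 and lower for 2, against 2.51% and 2.29% of all genes. From day 4 to 7 no member passed in either direction, against 0.702% and 0.315%. At an unadjusted p under 0.05 the same edgeR test held 6 higher and 5 lower members from day 2 to 4, and 2 higher and 7 lower from day 4 to 7. The shares of all genes given here are for adjusted p, so these unadjusted counts have no share to be read against. DESeq2 gave 1 higher and 2 lower from day 2 to 4 and 1 lower from day 4 to 7, and limma voom 5 higher and 2 lower, and none. Over all 15537 genes, DESeq2 called 532 higher and 686 lower from day 2 to 4, and 227 and 192 from day 4 to 7. Limma voom called 960 and 844, and 186 and 103.

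The effect was lower at day 7 than at day 2 for the chaperones Hspa5 (difference -0.84 ± 0.23, adjusted p = 0.0103), Dnajb9 (-0.89 ± 0.18, adjusted p = 0.000891), Manf (-0.74 ± 0.25, adjusted p = 0.037), Hsp90b1 (-0.58 ± 0.20, adjusted p = 0.0377) and Canx (-0.33 ± 0.11, adjusted p = 0.0311). It was also lower for Xbp1 (-0.48 ± 0.17), Derl2 (-0.34 ± 0.12), Spcs2 (-0.35 ± 0.11) and Spcs3 (-0.76 ± 0.11, adjusted p = 1.72e-05). The effect was higher at day 7 for Kdelr3 (1.02 ± 0.20, adjusted p = 0.000668), Fkbp10 (0.76 ± 0.22, adjusted p = 0.0137), Eif2ak3 (0.70 ± 0.18, adjusted p = 0.00651), Sec24d (0.45 ± 0.16) and Kdelr2 (0.39 ± 0.14, adjusted p = 0.0499). From day 2 to 4 it was lower for Dnajb9 (-0.98 ± 0.18, adjusted p = 0.00226) and Spcs3 (-0.56 ± 0.11, adjusted p = 0.00308).

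Dnajb9, Spcs3, Kdelr3 and Eif2ak3 kept their day 2 to 7 call in every alternative of scaling, filter, tool and library left out that was run. Leaving out a single library of the 20 ended the call of Kdelr2 in 16 cases, Sec24d in 13, Hsp90b1 and Xbp1 in 11 each, Manf in 10, Derl2 in 8, Canx in 4 and Spcs2 in 3. With library totals the calls of Hsp90b1, Canx, Manf, Xbp1, Derl2 and Spcs2 were lost, and with no filter those of Canx, Manf, Derl2, Sec24d and Kdelr2. Without the lung-transcript libraries 2 higher and 3 lower members were left, and Hspa5 had an adjusted p of 0.0522 (difference -0.87), Manf a difference of -0.44 and Fkbp10 an adjusted p of 0.0603 (difference 0.81).

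**Figure D4:**
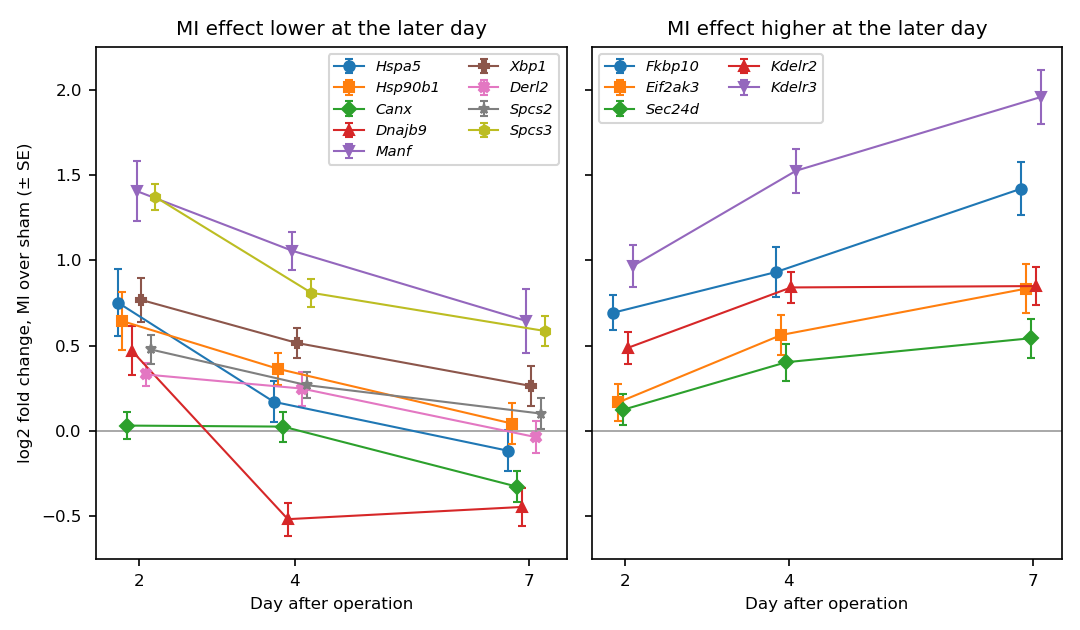
Log2 fold change of MI over sham with its SE (vertical axis) at days 2, 4 and 7 (horizontal axis, to scale) for the members whose MI effect changed between days, lower at the later day on the left and higher on the right. Kdelr3 moves from 0.97 to 1.96, and Spcs3 from 1.37 to 0.59.

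Other genes of the same routes are given from lists in which the members do not appear. Like the members, these lists were chosen with earlier results of these data known, so their counts are a description. Of all genes tested, 24.1%, 27.5% and 28.4% were called higher at days 2, 4 and 7, and 22.2%, 25.2% and 26.6% lower. Of 12 enzymes of oxidative folding, 7, 9 and 7 rose at days 2, 4 and 7, among them Ero1l, the oxidase that recharges disulfide isomerase, by 1.03 ± 0.19 at day 2, and Pdia5, an isomerase, by 1.13 ± 0.14 at day 4 and 1.57 ± 0.17 at day 7. Of 7 ER proline isomerases, 5 rose and 1 fell at day 2, 6 rose at day 4 and all 7 rose at day 7. Their largest changes were those of Fkbp11 (1.43 ± 0.18 at day 2 and 1.62 ± 0.19 at day 4) and Ppic (1.98 ± 0.16 at day 7). The oligosaccharyltransferase, which attaches sugar chains during translocation, had 7 of 12 subunits higher at day 2, 9 at day 4, and 5 higher and 1 lower at day 7, with Ostc at 0.94 ± 0.11, 1.001 ± 0.12 and 0.99 ± 0.18.

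Glycan trimming and the calnexin cycle gave 3 higher and 2 lower of 13 at day 2, 8 and 2 at day 4, and 5 higher at day 7. The other degradation genes were mixed, with 5 higher and 2 lower of 14 at day 2, 5 and 5 at day 4, and 3 and 5 at day 7, and the membrane ligase gene March6 fell by 0.59, 0.62 and 0.86. Other translocation genes gave 5 higher and 1 lower of 14 at day 2, 4 and 2 of 15 at day 4, and 3 and 3 of 15 at day 7. Tram2, whose product is known to take part in collagen synthesis, rose by 0.46, 0.95 and 1.07, the largest change of that list on each day. Other COPII genes gave 3 and 1 of 15, 4 and 2, and 2 and 4, shares below those of all genes called higher. The higher counts of glycan trimming at day 2, of the other degradation genes at day 7 and of other translocation genes at days 4 and 7 also lay near or below those shares. The COPI coat, which carries KDEL receptors back to the ER, gave 4 higher and 1 lower of 9 at day 2, 5 and 1 at day 4, and 4 and 0 at day 7.

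Target genes of ATF4 outside the members were mostly higher, with 14 of 23 higher and 2 lower at day 2, 15 of 22 and 3 at day 4, and 12 of 23 and 3 at day 7. Gdf15, a stress-induced secreted factor, rose by 2.90 ± 0.20 at day 2 and 3.46 ± 0.42 at day 4, and Slc7a11, the cystine transporter, by 2.49 ± 0.27 and 3.17 ± 0.33. At day 7 their values were 2.14 ± 0.22 and 2.32 ± 0.83. Of 10 kinases, exchange factors and phosphatase subunits of eIF2α, 5 rose at day 2, 4 rose and 1 fell at day 4, and 3 rose and 4 fell at day 7. The higher count of day 7 lay near the share of all genes. A further list held genes of the CREB3 family, the proteases that cut it and ATF6, and another gene of the ATF6 family. Of those tested, 3 of 6, 5 of 6 and 6 of 7 were higher at days 2, 4 and 7. Creb3l1, which is known for a role in collagen secretion, rose by 1.24 ± 0.14 at day 4.

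Genes for the calcium store of the sarcoplasmic reticulum, the specialised ER of muscle, ran the other way. Of 8, 5 fell at day 2 and all 8 at days 4 and 7, among them the calcium pump gene Atp2a2 (-1.36 ± 0.13 at day 2) and Hrc (-1.57 ± 0.14 at day 4 and -1.80 ± 0.19 at day 7). They moved with the lower cardiomyocyte marker sums given above. Collagens, cargo of the collagen folding factors, were higher in 3 of 8 cases at day 2, 8 of 9 at day 4 and all 9 at day 7, with Col12a1 at 1.57 ± 0.27, 2.69 ± 0.38 and 4.11 ± 0.35. They moved with the higher fibroblast marker sums of days 4 and 7, which share Col1a1 with this list, and the part of cell numbers in either result was not tested.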

How the data were processed

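Raw counts per Ensembl gene were deposited by the authors as 1 table per library. The submitters' processing notes name GRCm38, bcl2fastq (2.20.0) and featureCounts. Which aligner was used, and with which version and strand setting reads were counted, is not given in the sources used here. Libraries were directional, 150 bases paired, per the labels' protocols. Gene symbols matched 97.5% of 43629 IDs, and all counts of the deposited tables entered the library totals. The tables hold 0 counts for the 37 genes encoded by mitochondrial DNA.

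Each day's 10 libraries were fitted with edgeR 4.0.16 (R 4.3.3, quasi-likelihood F test, robust, TMM factors, filterByExpr with a minimum count of 10 and a total of 15), with Benjamini-Hochberg adjustment over all genes tested and a threshold of 0.05. Changes between days were contrasts in 1 fit of 30 libraries. The SE is the log2 fold change divided by the root of its F. The script was tested on simulated data. DESeq2 1.42.0, limma voom 3.58.1, other factors and filters, a replicate block and leaving out each library were alternatives, and library totals and leaving out libraries with lung transcripts were chosen after seeing the data. Near-copies were transcripts of GENCODE M21 with at least 90% identity over at least 150 bases and 50% of their length (blastn 2.17.0). Printed levels are counts divided by the TMM-scaled library total, as CPM. Figures were drawn with matplotlib 3.10.9.

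The members and all lists were chosen with earlier results of these data known. Values in every library are printed for sensors, stress targets, the members with the highest and lowest change of each role and day, and Hspa5, Kdelr2, Kdelr3, Serpinh1 and Fkbp10, and other genes are named only as the 2 largest changes per list and day. The labels do not say that libraries of a group are separate mice, so p-values measure the spread between these libraries. Day 2 libraries have another first number in their description than those of days 4 and 7, shared by MI and sham. Within-day comparisons and the change from day 4 to 7 do not cross it. Comparisons of day 2 with a later day cannot be told apart from it. Same-numbered MI and sham libraries deviated from their group means with correlations from -0.19 to 0.23, which do not show that the numbers pair them and cannot exclude it.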

Additional observations from a re-analysis of the deposited data

Results flagged for a closer look

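In 13 of 300 combinations of member and group, 1 library stood apart from the other 4 by more than Dixon's 95% criterion, which chance alone gives in about 1 in 20 groups. At day 2, MI replicate 5 was high for Pdia6 (312 CPM), Dnajb11 (124 CPM) and Creld2 (73.4 CPM). At day 4, MI replicate 1 was high for Calr (654 CPM), MI replicate 5 was high for Eif2ak3 (27.6 CPM), sham replicate 2 was high for Ssr4 (71.8 CPM) and sham replicate 3 was low for Dnajb9 (52.1 CPM). At day 7, MI replicate 1 was high for Ssr4 (157 CPM) and Sec61b (23.8 CPM), MI replicate 3 for Ern1 (35.7 CPM) and MI replicate 4 for Derl3 (2.87 CPM), a library that also held the highest sum of plasma and B cell markers (2132 CPM). Sham replicate 3 of day 7 was high for Ssr4 (84.4 CPM) and low for Sel1l (84.1 CPM).

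A change of the MI effect between days passed its edgeR test 16 times. From day 2 to 4, the log2 difference was -0.98 for Dnajb9 and -0.56 for Spcs3. From day 2 to 7 it was -0.84 for Hspa5, -0.58 for Hsp90b1, -0.33 for Canx, -0.89 for Dnajb9, -0.74 for Manf, -0.48 for Xbp1, -0.34 for Derl2, -0.35 for Spcs2 and -0.76 for Spcs3. On the same interval it was 0.76 for Fkbp10, 0.70 for Eif2ak3, 0.45 for Sec24d, 0.39 for Kdelr2 and 1.02 for Kdelr3.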

How the results depend on the processing

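No called value of a member changed direction under an alternative, and 250 of 4639 values that passed neither the main test nor the alternative changed sign. Outside leave-one-out, 2516 single-member values stayed on their side of the threshold, 45 gained and 67 lost the call, and with 1 library left out these numbers were 4327, 38 and 115. With library totals in place of TMM factors, the median log2 fold change was 0.61 for collagen folding and 0.67 for translocation at day 2. At day 4 it was 0.95 for chaperones, 1.17 for collagen folding, 0.61 for sensors, 0.41 for stress targets, 0.27 for ER-associated degradation, 0.79 for translocation and 0.80 for export. At day 7 it was 0.21 for ER-associated degradation and 0.76 for translocation, 1 member was lower, and from day 2 to 7 3 were lower. Without the libraries holding lung transcripts, 2 members were lower at day 7, and from day 2 to 7 2 were higher and 3 lower, with a translocation median of 0.18. For the changes between days, DESeq2 gave 1 higher from day 2 to 4, 1 lower from day 4 to 7 and 14 lower from day 2 to 7. Limma voom gave 5 higher from day 2 to 4 and 14 lower from day 2 to 7, and median-ratio factors and no filter each gave 3 higher from day 2 to 7. The calls over all genes differed between these fits too, and are given above with the changes between days. The cause of these shifts was not tested. With 1 library left out, the collagen folding median of day 2 ranged from 0.44 to 0.62 (its highest value without sham replicate 1), members higher from day 2 to 4 from 0 to 2, and from day 2 to 7 members higher from 3 to 6 and lower from 3 to 13. Whether the replicate numbers pair the libraries is not shown by the data. With the replicate block, members higher at day 7 numbered 24 in place of 27, and from day 2 to 7 4 were higher and 6 lower. Hspa5 (adjusted p = 0.0597) and Hyou1 (0.0597) at day 2 and Creld2 (0.0577), Sec61g (0.0633) and Ssr3 (0.0502) at day 7 were not called with the block. Depth limits Derl3, Sec61g, Chac1 and Trib3, whose levels rest on few counts.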
